A study of Mus musculus with 16 samples.

Results

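The genes described here form a list of 39 members of transforming growth factor beta (TGF-beta) and bone morphogenetic protein (BMP) signalling, from ligands and their storage proteins through receptors and Smads to antagonists and target genes. They were chosen by name for their known roles, with earlier results of these data known. Of these, 35 were among the 13015 genes listed in the table. Tgfb2, Bmp4, Grem1 and Fstl3 were not analysed here.

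RNA was sequenced from NIH/3T3 cells, an established line of mouse embryonic fibroblasts, that carried either a control siRNA (siControl) or siRNA against Apc, the mouse gene of the tumor suppressor adenomatous polyposis coli (siAPC). Cells sat for 2 h on a filter with 3.0 µm pores and met lysophosphatidic acid, a lipid attractant, from below for 1 h before fixation in 0.3% paraformaldehyde for 10 min. Material collected under the filter was the protrusion fraction (Ps) and material above it the cell body fraction (CB). With 4 libraries for each fraction and siRNA (4 groups), the design asked where each RNA lay and whether knockdown of Apc moved it. All groups shared the line, the filter, the attractant and the fixation, and they differed only in siRNA and fraction. Each level below is a log2 CPM as deposited (reads of a gene relative to the size of its library, on a log2 scale), and p-values measure the spread between replicates that the study describes as independent.

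TGF-beta is secreted as a latent complex that some of the latent TGF-beta binding proteins tie to the extracellular matrix, and fibroblasts both make and answer it. Released ligand joins type II and type I receptor kinases, which phosphorylate receptor-regulated Smads. These enter the nucleus with Smad4, while inhibitory Smads, Smurf ubiquitin ligases and the co-repressors Ski, Skil and Tgif1 restrain the signal. BMP ligands use the same layout with Smad1 and Smad5, and the Id genes are among their best known targets.

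The libraries held 13466225 to 20296087 reads in listed genes. Apc, the check of the siRNA labels, lay between 2.13 and 3.54 in siControl CB and between 0.54 and 1.42 in siAPC CB, and between 3.29 and 3.73 in siControl Ps against 1.33 to 1.90 in siAPC Ps. The log2 change with siAPC was -1.67 in CB (SE 0.25, adjusted p = 0.000142) and -1.84 in Ps (SE 0.25, adjusted p = 3.11e-05), so Apc RNA remained in both. All 9 fibroblast markers were listed, with summed levels of 37199 to 40561 CPM in siControl CB, 22560 to 24833 in siControl Ps, 47444 to 52540 in siAPC CB and 27601 to 30097 in siAPC Ps. By contrast 2 of 6 epithelial, 2 of 5 endothelial and 2 of 7 leukocyte markers were listed, with summed levels of at most 10.7, 1.84 and 7.46 CPM. Of 4 nuclear-retained RNAs 3 were listed, and their summed level was 644 to 897 CPM in siControl CB, 127 to 309 in siControl Ps, 423 to 574 in siAPC CB and 105 to 239 in siAPC Ps. The share of reads from mitochondrial genes was 1.37% to 1.95% in CB libraries and 2.18% to 4.16% in Ps. These levels moved with the fraction. The fibroblast sum also moved with the siRNA, as did the nuclear-retained sum in CB, and their part in the results below was not tested. Of 4 myofibroblast markers 3 were listed, with summed levels of 216 to 272 CPM in siControl CB and 619 to 699 in siAPC CB. In protrusions that sum was 302 to 368 CPM in siControl and 793 to 831 in siAPC, so it moved with the siRNA, and its part in the siRNA comparisons was not tested. Most of the myofibroblast sum was Acta2, with a mean log2 level of 7.86 in siControl CB and 9.33 in siAPC CB. Tagln was at -0.43 and 0.84. Acta2 is also counted among the TGF-beta-induced genes below. In 1 cell line, a smaller share of cells with a transcript and less of it in each cell cannot be told apart. In 1 library of each group the levels of low GC transcripts stood high relative to the group, with Spearman's rho between deviation and GC content over 9878 genes of -0.525 for siControl CB replicate 3, -0.603 for siControl Ps replicate 2, -0.586 for siAPC CB replicate 2 and -0.645 for siAPC Ps replicate 2 (the other 12 ran from -0.0389 to 0.535). Without these 4 libraries, 5 members were higher and 19 lower in Ps than in CB in siControl, and 4 higher and 19 lower in siAPC, and the counts for siAPC against siControl were 9 and 2 in CB and 11 and 3 in Ps. Shares of all genes in that fit are not given, so these counts show only how member calls moved. Bmpr2 was at 4.50 in siControl CB replicate 3 against 3.19 to 3.34 in the other 3 libraries.

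In control cells most of the listed genes were on the CB side. Ps was lower than CB for 21 of the 35 genes, higher for 1, and 13 did not pass (limma, Benjamini-Hochberg adjusted p below 0.05 over 13015 genes), beside 31.2% of all genes lower and 29.1% higher. The median log2 Ps/CB ratio was -0.43 over the 35 genes and -0.00091 over all genes. In 16 of the 35 genes the 4 Ps libraries did not overlap the 4 CB libraries, as in 50.5% of all genes. By the 2-fold rule of the study (fold change above 2, unadjusted p below 0.05), 8 were CB-enriched and 1 was Ps-enriched, beside 6.82% and 7.19% of all genes.

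**Figure D1:**
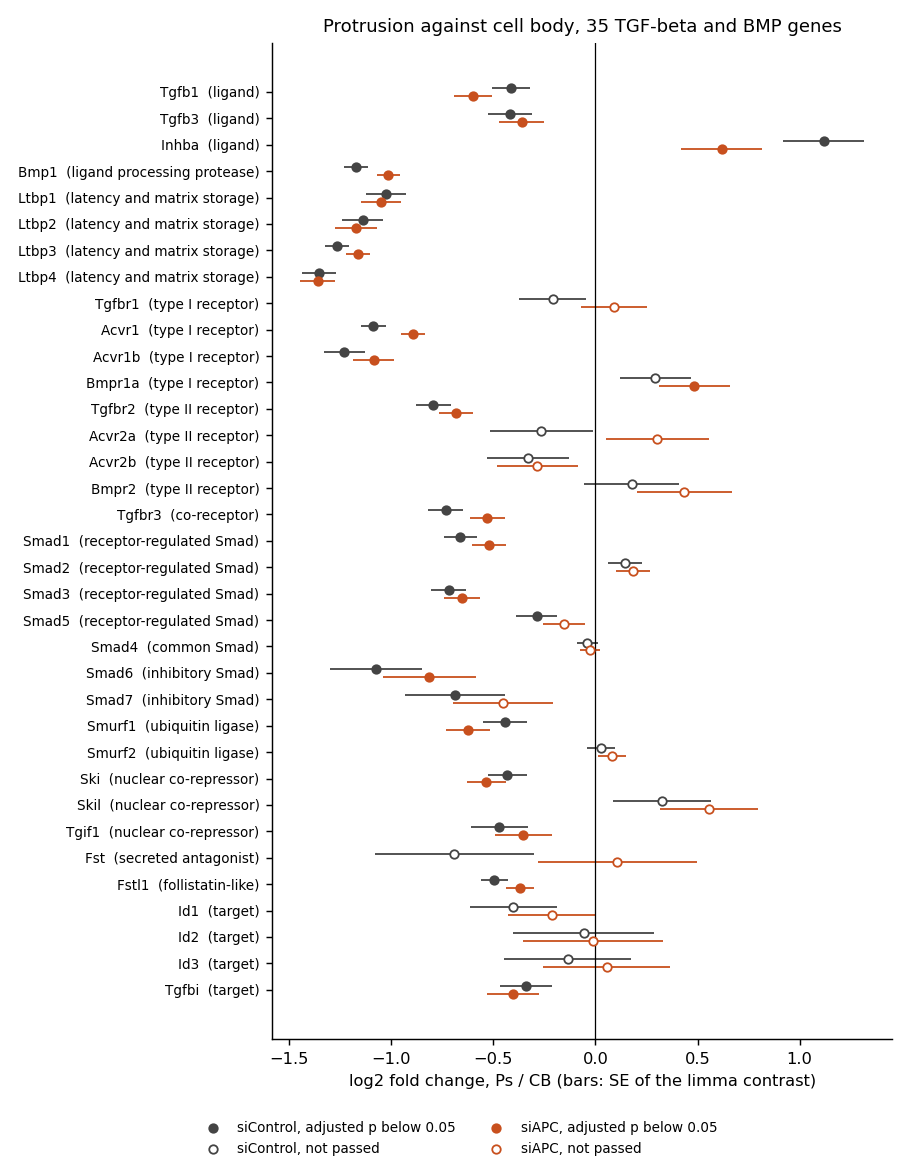
Log2 Ps/CB fold change of the 35 genes on the x axis, 1 row per gene with its role, for siControl (grey) and siAPC (orange); bars are the SE of the limma contrast and filled points passed an adjusted p of 0.05. The 4 Ltbp genes, Bmp1, Acvr1, Acvr1b and Smad6 sit farthest to the left under both siRNAs, and Inhba farthest to the right, at 1.12 in siControl.

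The ligand genes divided. Tgfb1 lies at chr7:25687002-25705077, Tgfb3 at chr12:86056745-86079041 and Inhba at chr13:16011851-16031621 (GRCm38, here and below). Tgfb1, which encodes the best studied TGF-beta, read 7.37, 7.31, 6.84 and 7.06 in the CB libraries and 6.87, 6.63, 6.72 and 6.71 in Ps, a log2 ratio of -0.41 (SE 0.09, adjusted p = 0.000817). Tgfb3 read 6.02, 5.90, 6.20 and 6.17 in CB and 5.44, 5.40, 5.99 and 5.78 in Ps, a ratio of -0.42 (SE 0.11, adjusted p = 0.00241). Both were lower in Ps on average, and for both the highest Ps library reached into the CB range. Inhba, which encodes the subunit of activin A, read 0.21, 0.34, 0.84 and 0.15 in CB, from 19 to 41 reads, and 1.59, 1.45, 1.42 and 1.55 in Ps, from 33 to 41 reads. All 4 Ps libraries of Inhba lay above all 4 CB libraries, with a ratio of 1.12 (SE 0.20, adjusted p = 7.8e-05), although the gene was among the 3 with the lowest level per kb of exon.

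Genes grouped here under latency and matrix storage were among those with the lowest ratios. All 4 latent TGF-beta binding proteins, and Bmp1, a secreted protease that processes procollagens and matrix proteins that hold TGF-beta, were CB-enriched. Ltbp4 read 7.45, 7.37, 7.27 and 7.38 in CB and 5.90, 5.88, 6.14 and 6.13 in Ps, a ratio of -1.35 (SE 0.08, adjusted p = 2.1e-10). Ltbp3 read 8.48, 8.47, 8.24 and 8.37 in CB and 7.11, 7.09, 7.20 and 7.10 in Ps, a ratio of -1.27 (SE 0.06, adjusted p = 9.16e-12). In both genes the gap between fractions was far wider than the spread among libraries of 1 fraction. Ltbp2 (4.94, 4.82, 4.66 and 4.87 against 3.58, 3.48, 3.93 and 3.74) had a ratio of -1.14 (SE 0.10, adjusted p = 1.63e-08), and Ltbp1 (5.05, 4.89, 4.86 and 4.83 against 3.87, 4.15, 3.58 and 3.92) one of -1.02 (SE 0.10, adjusted p = 3.76e-08). Bmp1 read 7.89, 7.80, 7.83 and 7.91 in CB and 6.65, 6.66, 6.77 and 6.65 in Ps, a ratio of -1.17 (SE 0.06, adjusted p = 1.57e-11). None of these 5 genes had overlapping fractions. Ltbp1 lies at chr17:75005568-75392512, Ltbp2 at chr12:84783212-84876532, Ltbp3 at chr19:5740904-5758532, Ltbp4 at chr7:27305136-27337692 and Bmp1 at chr14:70474558-70520234. Opposite-strand genes share part of the exonic length of Ltbp2 (9.34%), Ltbp3 (2.01%) and Acvr2a (7.84%), and whether counting used strand is not stated.

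Receptor genes separated by member and not by type. Among type I receptors, Acvr1b, an activin receptor, read 4.85, 4.90, 4.63 and 4.92 in CB and 3.55, 3.42, 3.85 and 3.57 in Ps, a ratio of -1.23 (SE 0.10, adjusted p = 5.5e-09). Acvr1, a BMP and activin receptor, read 6.44, 6.55, 6.35 and 6.45 in CB and 5.34, 5.43, 5.30 and 5.36 in Ps, a ratio of -1.09 (SE 0.06, adjusted p = 4.2e-11). Acvr1b (chr15:101174067-101213684) and Acvr1 (chr2:58388644-58567157) were CB-enriched, with no overlap of libraries. The TGF-beta receptor Tgfbr1 (2.52, 2.91, 3.20 and 2.78 in CB, 2.56, 2.74, 2.68 and 2.59 in Ps) differed by -0.21 (SE 0.16, adjusted p = 0.275), with overlapping libraries. The BMP receptor Bmpr1a (4.51, 4.29, 5.14 and 4.38 in CB, 4.70, 5.11, 4.83 and 4.84 in Ps) differed by 0.29 (SE 0.17, adjusted p = 0.156). Its CB replicate 3 was the highest of all 8 libraries.

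Among type II receptors only Tgfbr2, the TGF-beta receptor (chr9:116084293-116175360), passed, with 8.14, 8.20, 7.82 and 7.98 in CB and 7.23, 7.35, 7.19 and 7.19 in Ps and a ratio of -0.79 (SE 0.08, adjusted p = 1.42e-07). The 4 Ps libraries of Tgfbr2 lay below the 4 CB libraries. Acvr2a (1.82, 2.07, 2.86 and 1.93 in CB, 1.93, 2.46, 1.49 and 1.74 in Ps) differed by -0.26 and Acvr2b (2.81, 2.56, 1.70 and 2.17 in CB, 1.84, 1.73, 2.31 and 2.04 in Ps) by -0.33, with adjusted p = 0.377 and 0.163. Bmpr2, a BMP receptor, read 3.19, 3.30, 4.50 and 3.34 in CB and 3.66, 3.99, 3.63 and 3.75 in Ps and differed by 0.18 (SE 0.23, adjusted p = 0.526). Without CB replicate 3 its ratio was 0.48 (adjusted p = 0.0198), and that of Bmpr1a was 0.48 (adjusted p = 0.0105) and that of Skil 0.61 (adjusted p = 0.00964), so that 4 genes in place of 1 were higher in Ps. The co-receptor Tgfbr3, which presents ligand to Tgfbr2, read 5.83, 5.90, 5.97 and 6.07 in CB and 5.06, 5.29, 5.19 and 5.30 in Ps, with no overlap and a ratio of -0.73 (SE 0.09, adjusted p = 4.91e-07). Per kb of exon, Tgfbr2 stood at 32.0 CPM in siControl CB against 1.11 for Tgfbr1, 1.26 for Acvr2b, 0.792 for Acvr2a and 0.666 for Bmpr2. The log2 ratio of Tgfbr2 to Tgfbr1 within a library was 4.61 to 5.62 in CB and 4.51 to 4.66 in Ps, so the fractions overlapped.

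The Smads split in a similar way. Smad3 (7.05 to 7.47 in CB, 6.46 to 6.59 in Ps), which carries the TGF-beta signal, was lower in Ps, with a ratio of -0.72 (SE 0.09, adjusted p = 7.92e-07). Smad2, its partner in the same branch, read 4.16 to 4.35 in CB and 4.34 to 4.44 in Ps, a ratio of 0.15 (SE 0.08, adjusted p = 0.138). Within each library the log2 ratio of Smad3 to Smad2, into which no scaling enters and which was chosen after the values were seen, was 3.04 ± 0.26 (SD, n = 4) in CB and 2.17 ± 0.08 in Ps, and the 2 sets of libraries did not overlap. The GC content of the longest transcript was 53.1% for Smad3 and 44.9% for Smad2, and its part in this ratio was not tested. Smad4, shared by both branches, differed by -0.04 (SE 0.05, 95% interval -0.15 to 0.07). Smad1 and Smad5 of the BMP branch were lower in Ps, with ratios of -0.66 (SE 0.08, adjusted p = 1.21e-06) and -0.29 (SE 0.10, adjusted p = 0.0196). Smad6, an inhibitory Smad (chr9:63953076-64022059), read 2.21, 2.15, 2.11 and 2.10 in CB and 0.98, 0.52, 1.10 and 1.68 in Ps, a ratio of -1.07 (SE 0.23, adjusted p = 0.000429), and was CB-enriched with no overlap, from 17 to 45 reads in Ps. Smad7, the other inhibitory Smad, had a ratio of -0.69 (SE 0.25, adjusted p = 0.0215). Leaving out 1 of 4 libraries (CB replicate 3 or 4, Ps replicate 1 or 2) ended the calls of Smad5 (ratios of -0.21 to -0.27) and Smad7 (-0.54 to -0.60).

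Of the remaining inhibitors and targets, Smurf1 (-0.44), Ski (-0.43), Tgif1 (-0.47), the follistatin-like gene Fstl1 (-0.50) and the matrix gene Tgfbi (-0.34) were lower in Ps, while Smurf2 (0.03), Skil (0.33), Fst (-0.69), Id1 (-0.40), Id2 (-0.06) and Id3 (-0.14) did not pass. The log2 ratio of Smurf1 to Smurf2 within a library, also chosen after the values were seen, was 1.76 ± 0.13 (SD, n = 4) in CB libraries and 1.29 ± 0.29 in Ps, given with no test. GC content was 55.5% for Smurf1 and 46.7% for Smurf2, and its part in this ratio was not tested either. The call of Tgfbi ended when CB replicate 1 or 2 or Ps replicate 3 or 4 was left out (ratios of -0.25 to -0.31). Grouped by where the protein acts, a split made after the values were seen, 9 of 11 secreted, 4 of 9 membrane receptor and 8 of 15 intracellular genes were lower in Ps, beside 31.2% of all genes.

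The ratio moved with base composition. Over the 35 genes, Spearman's rho between the Ps/CB ratio in siControl and the GC content of the longest transcript was -0.652, against -0.333 over 12426 genes, and in siAPC it was -0.772 against -0.441. The genes share libraries and normalization, so these are descriptions of 1 set of libraries. Ltbp4, with the highest GC content (62.2%), had the lowest ratio, and Inhba, at 41.4%, the highest. When a smooth dependence on GC content and transcript length was removed from each library, the ratios of the 4 Ltbp genes and Bmp1 shrank to between -0.41 and -0.59 and stayed past the threshold. Acvr1 hardly moved, at -1.04, and Acvr1b was at -0.82. Under the same removal Smurf1 and Ski turned to 0.11 and 0.13, and Tgfb3 (-0.14), Smad7 (-0.14) and Tgfbi (-0.10) no longer passed, while Fst (-0.94), Id1 (-0.71), Acvr2a (-0.57) and Tgfbr1 (-0.45) did, which left 20 lower and 1 higher. In siAPC it ended the calls of Tgfb3 (-0.07), Inhba (0.28), Bmpr1a (0.12), Smad3 (-0.19), Smad6 (-0.26), Smurf1 (-0.02), Ski (0.08) and Tgfbi (-0.15), while Tgfbr1 (-0.31) and Smad5 (-0.25) passed, which left 15 lower and 0 higher, and all 4 Ltbp genes, Bmp1, Acvr1 and Acvr1b still passed. Scaling to total listed reads shifted the median gene by -0.30 in siControl, and members are read relative to that median.

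**Figure D2:**
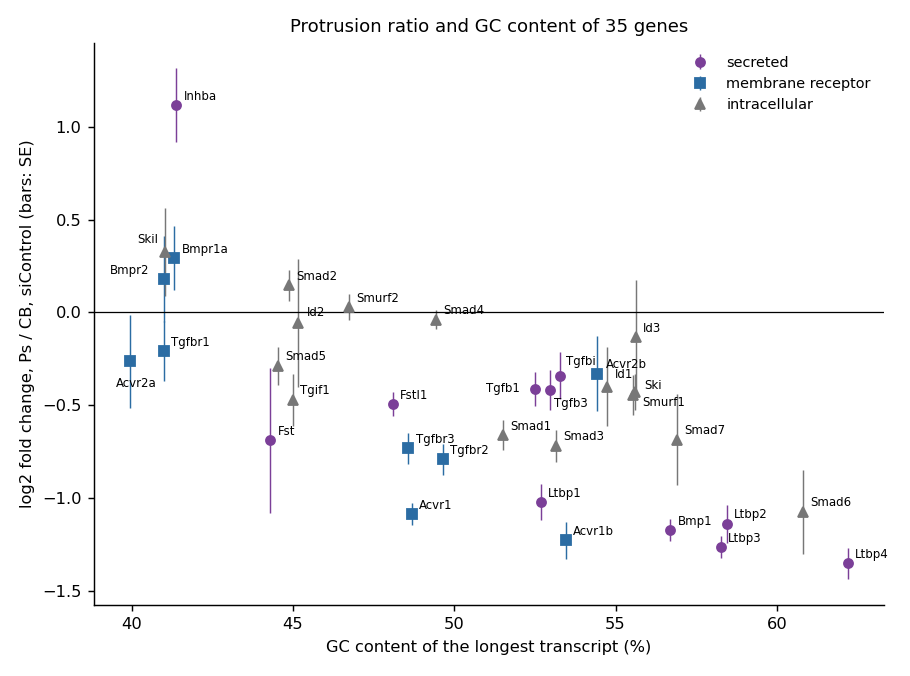
GC content of the longest transcript (x axis, percent) against the log2 Ps/CB ratio in siControl (y axis, bars are SE) for the 35 genes, marked as secreted, membrane receptor or intracellular. Ratios fall from 1.12 for Inhba at 41.4% GC to -1.35 for Ltbp4 at 62.2% GC, while Acvr1 lies below genes of like GC content.

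After knockdown of Apc most listed genes were again lower in Ps. In siAPC cells 19 of the 35 genes were lower in Ps, 2 were higher and 14 did not pass, beside 30.9% and 29.8% of all genes, and the median ratio was -0.37 against 0.015 over all genes. Libraries of the fractions did not overlap for 20 genes, as in 58.6% of all genes. CB-enriched by the 2-fold rule were 6 genes (5.05% of all genes), namely Bmp1 (-1.01), Ltbp1 (-1.05), Ltbp2 (-1.17), Ltbp3 (-1.16), Ltbp4 (-1.36) and Acvr1b (-1.09), and 0 were Ps-enriched (7.67% of all genes). Ltbp4, for example, read 6.82, 6.64, 6.83 and 6.65 in CB and 5.51, 5.16, 5.52 and 5.31 in Ps. Acvr1 read 6.79, 6.76, 6.65 and 6.73 in CB and 5.89, 5.91, 5.75 and 5.81 in Ps, a ratio of -0.89 (SE 0.06, adjusted p = 6.86e-10). In both genes every Ps library lay below every CB library.

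On the Ps side, Inhba (0.75, 0.78, 0.15 and 0.93 in CB, 1.26, 1.13, 1.44 and 1.26 in Ps) had a ratio of 0.62 (SE 0.20, adjusted p = 0.0113). Bmpr1a (4.30, 4.68, 4.24 and 4.15 in CB, 4.87, 5.27, 4.63 and 4.54 in Ps) had one of 0.48 (SE 0.17, adjusted p = 0.0221), with overlapping libraries. Neither call held in every fit, since leaving out siAPC CB replicate 3 gave 0.45 for both (adjusted p = 0.0550 and 0.0558), and for Bmpr1a leaving out siAPC CB replicate 4 gave 0.42 and siAPC Ps replicate 2 gave 0.34. Same-numbered libraries of these 8 correlated in all 4 pairs, but the same number was the best match in 3, so pairing by number is not certain. With replicate as a block, Smad7 (-0.45, blocked adjusted p = 0.0056) and Id1 (-0.21, blocked adjusted p = 0.0279) were lower. Skil (0.56, blocked adjusted p = 0.0279) was higher. These 3 genes did not pass without the block (adjusted p = 0.118, 0.397 and 0.0517). Tgif1 (-0.35, adjusted p = 0.0346) lost its call when siAPC CB replicate 3 or 4 or siAPC Ps replicate 1 or 2 was left out (-0.31 to -0.34).

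Whether knockdown moved these RNAs between fractions was tested as log2(Diff FC), the Ps/CB ratio in siAPC minus that in siControl. By limma, 0 of the 35 genes passed the adjusted threshold (beside 0% of all genes higher and 0.0231% lower), and voom weights and the replicate block also gave 0. At an unadjusted p below 0.05 there was 1, Acvr1, at 0.19 (95% interval 0.02 to 0.37, adjusted p = 0.981), beside 3.78% of all genes. The 95% intervals set what could have been seen. They ran from -0.14 to 0.16 for Smad4, from -0.26 to 0.25 for Ltbp4, from -0.01 to 0.33 for Bmp1 and from -0.14 to 0.36 for Tgfbr2. For genes with few reads they were wide, from -1.09 to 0.09 for Inhba and from -0.36 to 1.95 for Fst.

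Knockdown of Apc changed the level of several members in both fractions. In CB 9 of the 35 genes were higher in siAPC and 2 were lower, beside 7.52% and 5.87% of all genes, with libraries apart for 14 genes (20.9% of all genes) and a median change of 0.09 against -0.04. In Ps 11 were higher and 3 lower, beside 10.7% and 11.2% of all genes, with libraries apart for 16 (22.6% of all genes) and a median of 0.16 against -0.02. The 9 genes higher in CB, which were Tgfb3, Ltbp1, Ltbp2, Ltbp3, Acvr1, Tgfbr2, Smad6, Fst and Fstl1, were 9 of the 11 higher in Ps (81.8%), and the 2 lower in CB, Ltbp4 and Tgfbi, were 2 of the 3 lower in Ps (66.7%). Among all genes, 59.9% of those higher in Ps were also higher in CB, and 38.6% of those lower in Ps were also lower in CB. Scaled to total listed reads, Ps had 17 higher and 2 lower, beside 22.6% and 4.23% of all genes, and the median of all genes was at 0.14.

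**Figure D3:**
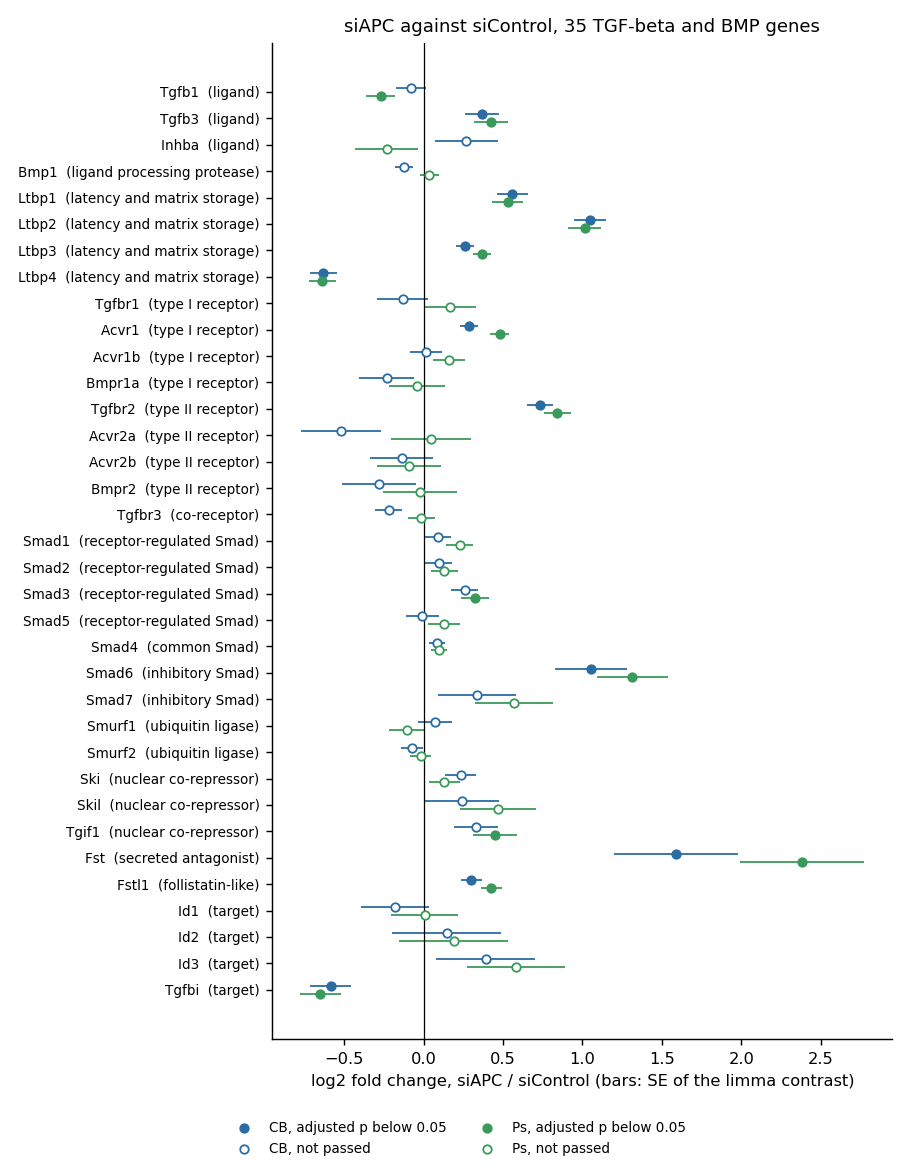
Log2 fold change of siAPC against siControl for the 35 genes (x axis), 1 row per gene with its role, in CB (blue) and Ps (green); bars are the SE of the limma contrast and filled points passed an adjusted p of 0.05. Fst, Smad6, Ltbp2 and Tgfbr2 lie farthest to the right in both fractions, from 0.73 to 2.38. Ltbp4 and Tgfbi are filled on the left in both fractions, and Tgfb1 in Ps.

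Within the Ltbp family the direction differed between members. Ltbp2 rose from 4.94, 4.82, 4.66 and 4.87 to 5.92, 5.66, 5.94 and 5.95 in CB (1.05, SE 0.10, adjusted p = 6.99e-07) and from 3.58, 3.48, 3.93 and 3.74 to 4.64, 4.53, 4.78 and 4.84 in Ps (1.01, SE 0.10, adjusted p = 8.46e-07). Ltbp1 rose from 4.83 to 5.05 up to 5.32 to 5.55 in CB (0.56, SE 0.10, adjusted p = 0.000579) and by a like amount in Ps (0.53, SE 0.10, adjusted p = 0.000593). Ltbp3 rose to 8.70, 8.59, 8.69 and 8.63 in CB (0.26, SE 0.06, adjusted p = 0.00531) and to 7.56, 7.40, 7.51 and 7.5 in Ps (0.37, SE 0.06, adjusted p = 0.000164). Ltbp4, by contrast, was at 7.27 to 7.45 in siControl CB and 6.64 to 6.83 in siAPC CB (-0.63, SE 0.08, adjusted p = 3.58e-05), and at 5.88 to 6.14 against 5.16 to 5.52 in Ps (-0.64, SE 0.08, adjusted p = 1.99e-05). In each fraction all 4 libraries of siAPC were above those of siControl for Ltbp1, Ltbp2 and Ltbp3 and below them for Ltbp4. The log2 ratio of Ltbp2 to Ltbp4 within a library, chosen after the values were seen and given with no test, went from -2.55 ± 0.05 (SD, n = 4) to -0.87 ± 0.12 in CB and from -2.33 ± 0.09 to -0.68 ± 0.17 in Ps. Ltbp4 therefore remained the more abundant of the pair by reads, by a much smaller margin.

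Among ligands, Tgfb3 was higher in siAPC, at 6.42, 6.36, 6.56 and 6.43 against 6.02, 5.90, 6.20 and 6.17 in CB (0.37, SE 0.11, adjusted p = 0.0291) and at 5.97, 6.0, 6.20 and 6.14 against 5.44, 5.40, 5.99 and 5.78 in Ps (0.43, SE 0.11, adjusted p = 0.00777). The CB libraries were apart, by a narrow margin, and the Ps libraries overlapped. The CB call ended when siControl CB replicate 1 or 2, or siAPC CB replicate 1, 3 or 4, was left out (0.31 to 0.37). Tgfb1 did not pass in CB (-0.08, SE 0.09, adjusted p = 0.629). In Ps it was at 6.57, 6.49, 6.43 and 6.36 against 6.87, 6.63, 6.72 and 6.71, a change of -0.27 (SE 0.09, adjusted p = 0.0428) with no overlap. That call ended when any of 10 of the 16 libraries was left out (siControl CB replicate 4, siControl Ps replicates 1, 3 and 4, siAPC CB replicates 1, 2 and 3, siAPC Ps replicates 2, 3 and 4), with changes of -0.22 to -0.28, and on scaling to total listed reads (-0.11, adjusted p = 0.307). The number of members lower in siAPC Ps was also 2 in place of 3 under quantile normalization and under voom weights. Inhba did not pass in either fraction (0.27 in CB and -0.23 in Ps).

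Of the receptors, Tgfbr2 rose most, from 8.14, 8.20, 7.82 and 7.98 to 8.88, 8.88, 8.65 and 8.65 in CB (0.73, SE 0.08, adjusted p = 5.74e-06) and from 7.23, 7.35, 7.19 and 7.19 to 8.18, 8.17, 8.02 and 7.95 in Ps (0.84, SE 0.08, adjusted p = 7.36e-07). Acvr1 rose by 0.28 in CB (SE 0.06, adjusted p = 0.00278) and by 0.48 in Ps (SE 0.06, adjusted p = 9.29e-06). For both genes the siAPC libraries lay above the siControl libraries in each fraction. The other 7 receptor genes did not pass in either fraction. The change of Tgfbr1, the kinase that pairs with Tgfbr2, was -0.13 in CB (95% interval -0.47 to 0.21) and 0.17 in Ps (-0.17 to 0.51). Changes of Acvr1b, Bmpr1a, Acvr2a, Acvr2b, Bmpr2 and Tgfbr3 ran from -0.52 to 0.16.

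Smad6 was the Smad with the largest change. It went from 2.21, 2.15, 2.11 and 2.10 to 2.95, 2.76, 3.60 and 3.47 in CB (1.05, SE 0.23, adjusted p = 0.00354) and from 0.98, 0.52, 1.10 and 1.68 to 2.13, 2.16, 2.85 and 2.39 in Ps (1.31, SE 0.23, adjusted p = 0.000308), with no overlap in either. Smad3 rose in Ps from 6.46, 6.59, 6.55 and 6.59 to 7.02, 6.92, 6.78 and 6.77 (0.32, SE 0.09, adjusted p = 0.0109). In CB it was at 7.47, 7.41, 7.05 and 7.14 against 7.65, 7.58, 7.45 and 7.42 in siAPC, a change of 0.26 (SE 0.09, adjusted p = 0.0552) with overlapping libraries. Smad1, Smad2, Smad4 and Smad5 did not pass and lay between -0.01 and 0.23. Smad7 was at 0.33 in CB (SE 0.25, adjusted p = 0.422) and 0.57 in Ps (SE 0.25, adjusted p = 0.111), and Id3 at 0.58 in Ps (SE 0.31, adjusted p = 0.206). Same-numbered Ps libraries also correlated in all 4 pairs, with the same number the best match in 3, so pairing is again not certain. With replicate as a block Smad7 and Id3 were higher in Ps (blocked adjusted p = 0.00992 and 0.0101). Tgif1 rose in Ps from 5.98, 6.18, 6.73 and 6.59 to 6.78, 6.77, 6.87 and 6.85 (0.45, SE 0.14, adjusted p = 0.0267), a call that ended when siControl Ps replicate 1 or 2 or siAPC Ps replicate 3 or 4 was left out (0.32 to 0.44).

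**Figure D4:**
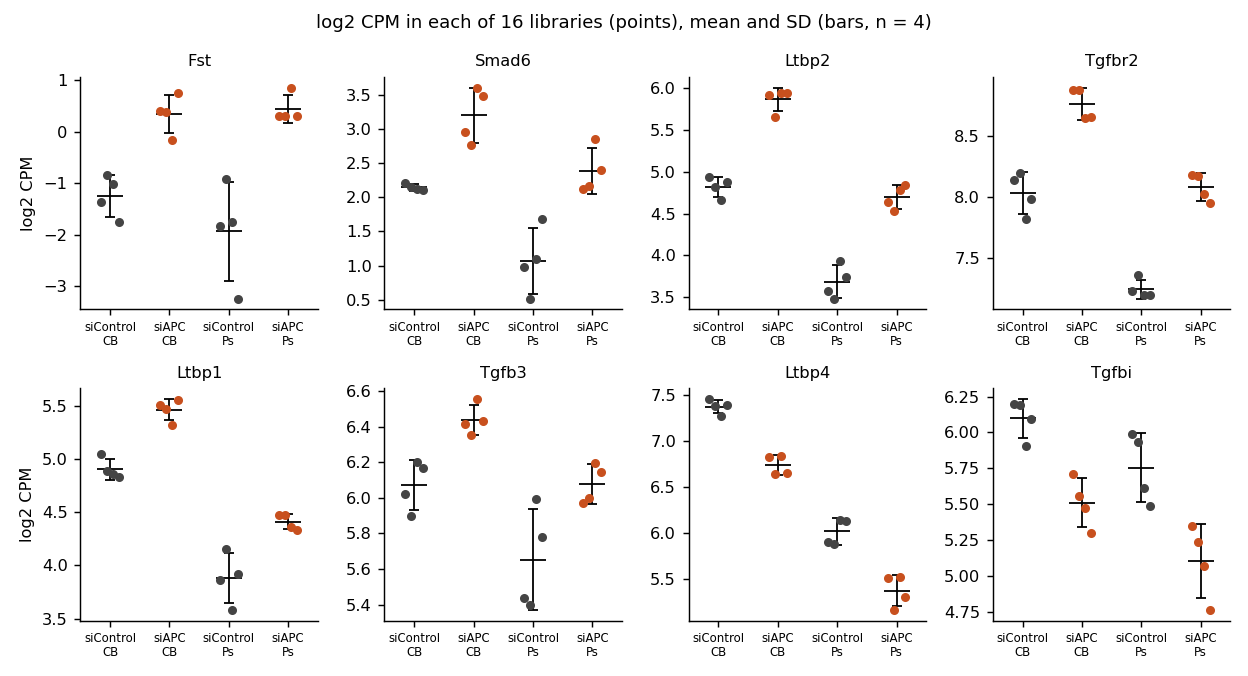
Log2 CPM of 8 genes in each of the 16 libraries (points), with mean and SD (bars, n = 4), siControl in grey and siAPC in orange; each panel has its own y axis. In Fst, Smad6, Ltbp2, Tgfbr2 and Ltbp1 the siAPC points lie above the siControl points of the same fraction, Tgfb3 does so in CB, and in Ltbp4 and Tgfbi they lie below.

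Of the secreted antagonists, Fst (chr13:114452290-114458951), which encodes the activin-binding protein follistatin, had the largest change of any member and few reads. Its siControl CB libraries held 6, 9, 11 and 5 reads and its siAPC CB libraries 28, 25, 17 and 29, while siControl Ps held 3, 6, 4 and 1 and siAPC Ps 19, 18, 34 and 20. Every siAPC library thus exceeded every siControl library of its fraction. Summed over libraries and scaled to their sizes, the ratio of reads was 3.08 in CB (95% interval 2.04 to 4.78) and 5.32 in Ps (3.01 to 10.1), where the intervals cover counting error only. On the log2 scale the changes were 1.59 (SE 0.39, adjusted p = 0.00958) and 2.38 (SE 0.39, adjusted p = 0.00019), and the values of 2 siControl Ps libraries, at 3 reads and 1 read, were no higher than the 3 reads taken as the smallest detectable number. Fstl1, a secreted relative of follistatin and the member with the highest level per kb of exon, rose from 8.44, 8.34, 8.60 and 8.68 to 8.77, 8.78, 8.84 and 8.87 in CB (0.30, SE 0.07, adjusted p = 0.00442) and from 7.93, 8.10, 8.03 and 8.02 to 8.39, 8.48, 8.49 and 8.43 in Ps (0.43, SE 0.07, adjusted p = 0.000114).

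The 4 target genes among the members did not move as a group, and other induced genes are given below. Tgfbi, a matrix protein gene named for its induction by TGF-beta, fell from 6.20, 6.19, 5.91 and 6.09 to 5.71, 5.56, 5.47 and 5.30 in CB (-0.59, SE 0.13, adjusted p = 0.0037) and from 5.99, 5.93, 5.61 and 5.49 to 5.35, 5.24, 5.07 and 4.76 in Ps (-0.65, SE 0.13, adjusted p = 0.000988), with no overlap. Id1, Id2 and Id3 did not pass in either fraction without a block, and with replicate as a block Id3 was higher in Ps, as given above. For Id3 the spread within a group was as wide as the changes, with 2.52, 2.50, 3.66 and 3.73 in siControl CB, 2.46, 2.46, 3.63 and 3.33 in siControl Ps, 3.17, 3.21, 3.96 and 3.64 in siAPC CB and 3.45, 3.02, 3.88 and 3.86 in siAPC Ps. Replicates 3 and 4 were above replicates 1 and 2 in each of the 4 groups for Id3, and likewise for Id1 and for Smad7. The labels do not say what a replicate number marks, and the pattern was seen in the values and not tested.

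Promoter sequence is shown for a few members that changed with siAPC, to set motif and change side by side. RefSeq windows from 250 bases before to 50 after an annotated start (GRCm38.p6) were found by symbol for 26 of the 35 genes, 36 windows in all. Both strands were searched for CAGACA and GGCGCC, letters that Smad proteins of the TGF-beta and BMP branches are known to bind, for ATCAAAG and TTCAAAG of the TCF factors that work with beta-catenin, which Apc restrains, and for GGGCGG, the GC box. GGCGCC reads alike on both strands, and a GC box may overlap it. Windows of the same gene can overlap and share a site, as for GGCGCC in Ltbp4. The shares of windows were not matched for base composition. CAGACA was in 19.4% of the 36 windows and 21.0% of 32851 windows of all genes, GGCGCC in 33.3% and 11.9%, ATCAAAG in 2.78% and 3.73%, TTCAAAG in 0% and 5.14%, and GGGCGG in 75% and 35.7%. CAGACA or its reverse complement TGTCTG was in 6 genes, of which Ltbp1, Ltbp3 and Tgif1 were higher with siAPC in Ps and Smurf1, Smurf2 and Tgfbr1 did not pass in either fraction. GGCGCC was in 10 genes, of which Ltbp4 and Tgfbi were lower and Acvr1b, Bmpr1a, Bmpr2, Id2, Ski, Smad5, Smurf2 and Tgfbr1 did not pass. Tgif1 held the only ATCAAAG. The sites printed are those of a few genes that changed. These are matches of letters and not measured sites. Each line gives 10 bases on either side, 5′ to 3′ on the strand named, with the motif in capitals.

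Ltbp1, chr17:75178622-75178647, plus strand: tacatctgccTGTCTGtcgggggttg
Ltbp1, chr17:75178673-75178698, plus strand: tgttgctcttTGTCTGcccgtgaata
Ltbp4, chr7:27333817-27333842, minus strand: gagcagagggGGCGCCctcccctccc
Tgfbi, chr13:56609499-56609524, plus strand: tggtctgggaGGCGCCggctgccctt
Tgif1, chr17:70846912-70846938, minus strand: caaaatgtctATCAAAGtccaactggc

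Other genes of the pathway came from lists drawn up by role, of which 90 of 123 genes were listed. With siAPC, CB had 20 genes higher and 4 lower than in siControl, and Ps had 25 higher and 3 lower (the same background as above). The secreted proteoglycans Fmod and Dcn, which bind TGF-beta, were higher by 3.40 and 2.90 in CB (SE 0.18 and 0.20) and by 3.55 and 3.10 in Ps, and Thbs1, which can release it from the latent complex, by 2.38 in CB and 2.02 in Ps (SE 0.12). Lrrc32, which holds latent TGF-beta at the cell surface, was higher by 2.38 in CB and 2.42 in Ps (SE 0.39), from 1 to 11 reads in siControl and 15 to 50 in siAPC. Of 20 listed genes known to be induced by TGF-beta, CB had 8 higher and Ps 9, and 0 were lower in either. Among all genes 7.52% were higher and 5.87% lower in CB, and 10.7% and 11.2% in Ps. The 0 lower is close to those shares and is not read as a result about the list. Pmepa1 (2.82 in both), Ctgf (2.19 and 1.92) and Acta2 (1.46 and 1.35) were the highest in CB. In Ps, Has2 (1.73, SE 0.40) also lay above Acta2, from 2 to 11 reads in siControl and 21 to 38 in siAPC. Tgfbi, which fell, is a member and not in that list. In the same list Cdkn1a was at 0.05 and 0.09 and did not pass. Of 4 listed genes known to be induced by BMP, 1 was higher in CB and 2 in Ps, and 0 were lower in either. The shares above apply, and 4 genes are too few to read as a result about that list.

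For Ps against CB, 40 of these 90 genes were lower and 15 higher in siControl, and 40 lower and 18 higher in siAPC. Among all genes 31.2% were lower and 29.1% higher in siControl, and 30.9% and 29.8% in siAPC. The collagen genes Col1a1 (-1.33), Col1a2 (-1.46) and Col3a1 (-1.43) and Fn1 (-1.21) were lower in Ps in siControl (quantile normalization gave -2.25, -2.04, -1.90 and -1.71), as were the matrix gene Emilin1 (-1.33) and the BMP antagonist gene Chrd (-1.17). Gdf11, a ligand gene, was higher in Ps by 1.60 in siControl and 1.26 in siAPC (SE 0.14), and Usp15, which encodes a deubiquitinase that acts on the pathway, by 1.27 and 1.21 (SE 0.33). For the interaction 0 of the 90 genes passed by limma, and 3 were at an unadjusted p below 0.05, beside 3.78% of all genes.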

How the data were processed

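Libraries of 16 samples were grouped by the fraction and siRNA of the labels. The study made stranded mRNA libraries, aligned reads to mm10 with STAR 2.4.2a and counted by gene in Rsubread, with GENCODE release 4 gene models, before voom normalization in limma 3.26.1. The deposited values are log2 CPM with 0.5 reads added, relative to an effective library size. Inverting this gave whole reads (within 0.01) for 100% of 208240 values, which supplied read numbers, and 0 per-sample columns went unused. A floor of 3 reads lies at log2 -2.73 to -1.80, for counting error only. Positions and GC content came from GENCODE M21 (GRCm38), and whether counting used strand is not stated.

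limma 3.58.1 (R 4.3.3; lmFit, and eBayes with trend) fitted 1 mean per group over 16 libraries and 13015 genes, and was tested on simulated data. Two-sided p-values were adjusted by Benjamini-Hochberg. The members and gene lists were chosen with earlier results of these data known. Values per library, or in places their range, are given for members that passed in siAPC against siControl or the 2-fold rule in Ps against CB, and for ligands and receptors (for receptors that did not pass, in 1 or both siRNAs). Other pathway genes are named at an absolute log2 change of at least 1 that passed, and Cdkn1a was named after its values were seen. Same-numbered deviations correlated above 0.1 in 4 of 4 pairs for siAPC CB with Ps (mean 0.502) and for Ps across siRNAs (mean 0.345). In both of these the same number was the best match in 3 of 4, so pairing by number is not certain. The other comparisons had 2 of 4 pairs above 0.1. Alternatives were a replicate block, each library left out, the 1 library of each group with the steepest trend on GC content omitted (4 in all), 2 other scalings, 2 reads added, a filter on low values, voom weights, fits of only the groups compared and, chosen after seeing the data, loess on GC content and transcript length.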

Additional observations from a re-analysis of the deposited data

Results flagged for a closer look

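In 8 of the 140 sets of 4 libraries (35 genes in 4 groups) 1 library stood far from the other 3, where chance gives about 1 in 20, or 7. In siControl CB, Bmpr2 was at 4.50 in replicate 3 against 3.19 to 3.34, Ski at 7.32 in replicate 3 against 7.40 to 7.41, and Smurf1 at 6.95 in replicate 4 against 6.75 to 6.79. In siControl Ps, Bmp1 was at 6.77 in replicate 3 against 6.65 to 6.66, and Ltbp3 at 7.20 in replicate 3 against 7.09 to 7.11. Ltbp2 in siAPC CB was at 5.66 in replicate 2 against 5.92 to 5.95. In siAPC Ps, replicate 3 held Skil at 2.98 against 2.80 to 2.81 and Fst at 0.86 against 0.31 to 0.32. Bmpr2 had the widest gap.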

How the results depend on the processing

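Of the log2 changes of single members that passed, 1630 recomputed values kept direction and threshold, 63 lost the threshold and 3 reversed, all 3 on loess for GC content and length (Smurf1 0.11 and Ski 0.13 in siControl Ps against CB, Ski 0.078 in siAPC). The few genes higher in Ps were the least stable count. In siControl (1 gene) omitting the 4 GC-trend libraries gave 5, quantile normalization 2, and a minimum mean log2 level of 1, under which Inhba drops out, gave 0. It was 1 to 4 with 1 library left out. In siAPC (2 genes) omission of those libraries gave 4, and it was 0 scaled to total listed reads, 4 with only the groups compared, 0 on loess and 0 to 4 with 1 library left out. In siControl Ps against CB, 4 came without siControl CB replicate 3, and in siAPC, 4 came without that same library, which belongs to neither group and acts through the shared spread, and 0 without siAPC CB replicate 3. Genes higher in siAPC Ps were 17 in place of 11 when scaled to total listed reads, which moved the median of all genes there to 0.14. With a fold above 1.5 in place of 2, CB-enriched genes were 13 in siControl and 12 in siAPC, and Ps-enriched genes in siAPC were 1. Shares of all genes are not given for the 1.5-fold rule or the fits with libraries omitted. Those counts show only how member calls moved. The replicate block gave 1 higher and 22 lower for Ps against CB in siControl, where Id1 also passed, 3 and 21 in siAPC, 12 and 2 for siAPC against siControl in CB, where Smad3, Ski and Tgif1 also passed, and 13 and 3 in Ps. In siControl CB with Ps and in CB across siRNAs, the numbers were not shown to pair libraries, and in the other comparisons pairing is not certain. The interaction gave 0 under every alternative run, and has no fit of its own for only the groups compared. The planned count-based tests were not run. Depth limits Fst, Id2 and Inhba, with 1 to 51 reads per library. The causes of these shifts were not tested beyond what each setting leaves out.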

Other observations

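Of 6 listed ligand genes outside the member list, 1 was higher and 1 lower in siAPC CB and 2 were higher and 1 lower in siAPC Ps, beside 7.52% and 5.87% of all genes in CB and 10.7% and 11.2% in Ps. Gdf5, a BMP-type ligand gene, was at 7 to 12 reads in siControl CB and 34 to 39 in siAPC CB, and at 1 to 5 against 18 to 34 in Ps. Its log2 changes were 1.88 in CB (SE 0.35, adjusted p = 0.000987) and 3.35 in Ps (SE 0.35, adjusted p = 1.2e-06), the latter against siControl Ps libraries of 1, 1, 5 and 2 reads, of which 3 lay under the 3 reads taken as detectable. In both fractions the siAPC libraries lay above the siControl libraries. Gdf15 was higher in Ps (1.41, adjusted p = 0.00703) and did not pass in CB (0.58, adjusted p = 0.318). Its siControl Ps libraries held 4, 2, 4 and 2 reads, against 12, 7, 17 and 8 in siAPC Ps. Those at 2 reads lay under the 3 reads taken as detectable. Inha, an inhibin subunit gene, was lower in CB (-0.40, adjusted p = 0.0485), and Gdf11 was lower in Ps (-0.50, adjusted p = 0.0118). Bmper, which encodes a BMP regulator, was higher in Ps by 1.41 (SE 0.39, adjusted p = 0.0149), from 3 to 11 reads in siControl and 16 to 27 in siAPC.

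Of 31 listed Smad regulators and partners, 0 were higher and 1 was lower in siAPC CB, and 1 was higher and 1 lower in siAPC Ps, against the same shares of all genes. Between fractions the same list held 9 higher and 12 lower in siControl and 11 higher and 13 lower in siAPC, beside 29.1% and 31.2% of all genes in siControl and 29.8% and 30.9% in siAPC. Wwp1, which encodes a ubiquitin ligase, was higher in Ps by 1.02 in siControl and by 1.27 in siAPC (SE 0.25). In the list of other receptors and co-receptors, the repulsive guidance genes Rgma (-1.05) and Rgmb (-1.20), whose products are BMP co-receptors, were lower in Ps in siControl.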
